A study of Mus musculus with 10 samples.

Results

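The enzymes that build the phospholipids of cell and mitochondrial membranes were followed in brown adipose tissue (BAT) of mice labelled wild type (WT) or *Mgp*-KO. The list holds 10 genes, *Pcyt2*, *Pcyt1a*, *Chka*, *Cept1*, *Chpt1*, *Pemt*, *Pisd*, *Cds1*, *Cds2* and *Crls1*, chosen by name from the 27267 genes of the count table, and all 10 passed the filter on low values. RNA of interscapular BAT was sequenced from 5 WT mice and 5 mice labelled *Mgp*-KO, and the labels give each mouse as a C57BL/6 male aged 4 weeks. The study's methods give standard chow as the diet of all mice. The knockout is a global one, carried in the line B6.129S7-Mgptm1Kry/KbosJ, so every cell type of the animal carries it, and the labels name no transgene, Cre driver or drug for either group. *Mgp* encodes matrix Gla protein, an extracellular inhibitor of bone morphogenetic proteins, and the comparison asked which transcripts differ in BAT when it is missing.

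Phosphatidylcholine and phosphatidylethanolamine, the most abundant membrane phospholipids, are made in the Kennedy pathway: a kinase phosphorylates choline or ethanolamine, a transferase activates it with CTP, and a phosphotransferase joins it to diacylglycerol. Phosphatidylethanolamine is also made in mitochondria by decarboxylation of phosphatidylserine, and it can be methylated to phosphatidylcholine. CDP-diacylglycerol synthases feed the other branch, which leads to phosphatidylinositol and, in the inner mitochondrial membrane, to cardiolipin, a lipid that respiratory complexes and uncoupling protein 1 of brown fat bind.

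The libraries fall into sets that bear on every value here. Replicates 1 to 3 of both groups held between 19616366 and 22252260 reads on genes, with 0.771% to 1.72% on mitochondrial ribosomal RNA, whereas replicates 4 and 5 held between 9253793 and 13281873 reads, with 6.50% to 16.7% on it. *Mgp* itself was at 576, 489, 466, 1146 and 839 normalized counts in WT 1 to 5 and at 0, 0.765, 0.821, 500 and 331 in KO 1 to 5, so the reads of KO 4 and KO 5 go against their label. The library labelled WT 2 goes against its male label, with 5094 normalized counts of *Xist* and a sum of 3.74 over 4 genes of the Y chromosome, where the other 9 libraries held at most 44.0 and at least 1457. All labels were kept as given, and since *Mgp* contradicts them in part, the knockout group is written as the *Mgp*-KO-labelled libraries. *Ucp1*, the defining brown adipocyte gene, was detected in all 10 libraries, at 38421 to 116019 normalized counts in WT and 2201 to 15641 in the *Mgp*-KO-labelled libraries.

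Of the 10 genes, *Pcyt2* was the one whose groups did not overlap over all libraries, with a mean of 0.567 times that of WT (n = 5 each). In replicates 1 to 3 *Cds2* was 1.45 times and *Crls1* 1.91 times as high in the *Mgp*-KO-labelled libraries as in WT (n = 3 each), and in replicates 4 and 5 the ratios were 1.04 and 0.729 (n = 2 each). The difference of *Crls1* and *Cds2* between the sets of replicates was not past the threshold of its own test. The 13714 genes that averaged 10 or more normalized counts entered limma, on log2(normalized count + 1), and p-values were adjusted over all of them by the Benjamini-Hochberg method, with a threshold of 0.05. Log2 fold changes are on that scale, KO over WT, and are given with their standard error (SE). Over all 10 libraries, with genotype as the only term, 0 of the 10 genes passed, where 0.0656% of all tested genes did, and 1 of them, *Pcyt2*, had an unadjusted p under 0.05, where 10.4% of all tested genes did. On the reads recovered from the normalized counts, the quasi-likelihood test of edgeR also gave 0 of the 10 and DESeq2 gave 1, *Pcyt2*, where 0.0219% and 2.26% of all genes passed. *Mgp* itself, which has reads in KO 4 and KO 5, did not pass limma over all libraries (log2 fold change -5.57, adjusted p = 0.236). It did not pass edgeR or DESeq2 there either. Within replicates 1 to 3 *Mgp* passed limma (log2 fold change -8.43, adjusted p = 9.60e-05). A fit that misses the deleted gene cannot show that the enzymes are unchanged. The median log2 fold change of the 10 genes over all libraries was 0.00, against 0.03 for all tested genes. The p-values measure the spread between these mice, and in whole tissue fewer cells of a type and less RNA per cell cannot be told apart.

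**Figure D1:**
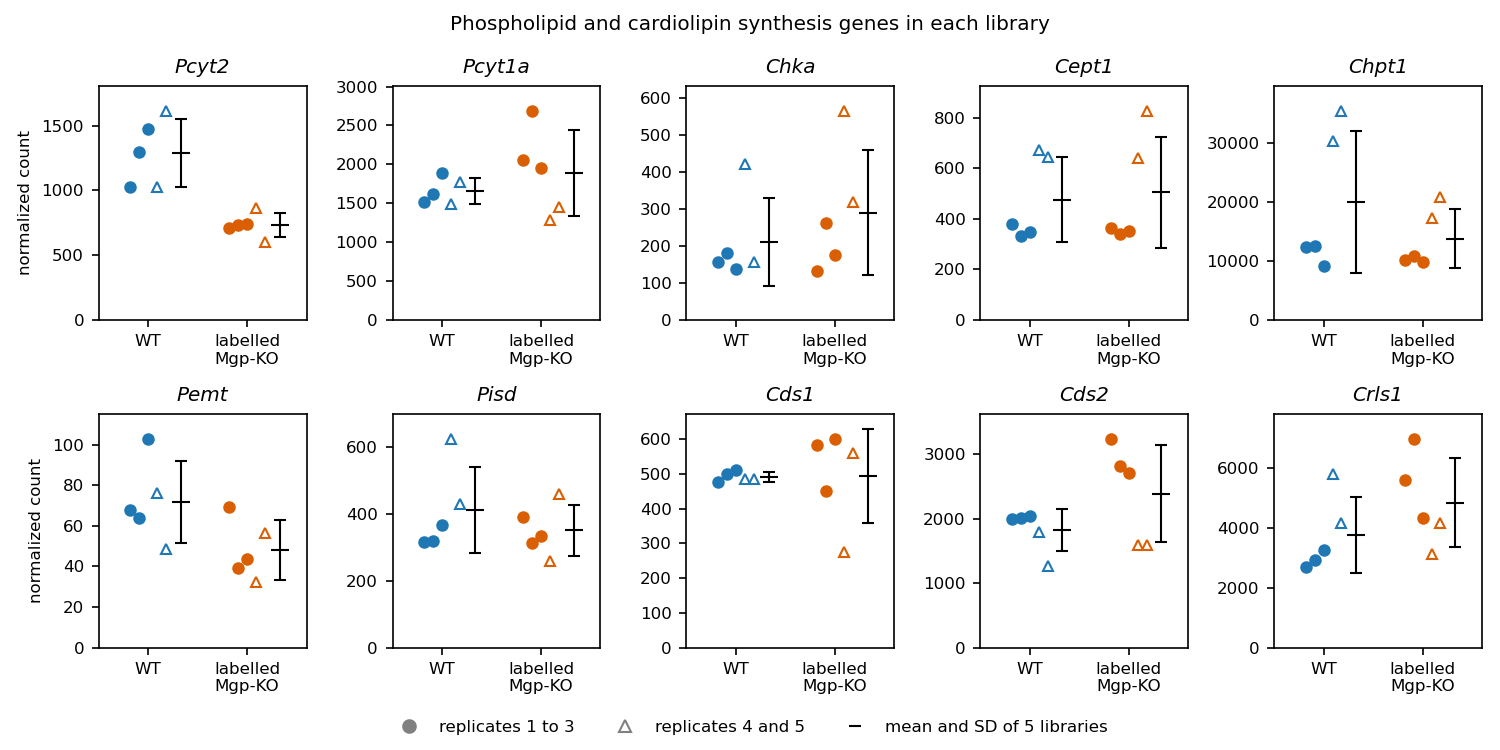
Normalized counts (vertical axes, each from 0) of the 10 genes in the 5 WT libraries and the 5 *Mgp*-KO-labelled libraries, with filled circles for replicates 1 to 3, open triangles for replicates 4 and 5, and the mean and SD of the 5 libraries at the side. *Pcyt2* lies lower in all 5 *Mgp*-KO-labelled libraries, while *Cept1* and *Chpt1* part replicates 1 to 3 from replicates 4 and 5.

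When the set of replicates entered the model as a term, 1 of the 10 genes passed, *Pcyt2*, where 2.36% of all tested genes did, and edgeR and DESeq2 with this term also called *Pcyt2* alone, where 2.49% and 7.42% of all genes passed. Within replicates 1 to 3, 3 of the 10 passed, *Pcyt2* lower and *Cds2* and *Crls1* higher, where 3.54% of all tested genes did (1.65% lower, 1.90% higher), and DESeq2 called the same 3 genes in these libraries, where 8.83% did. Without WT 2, whose reads go against the male label, 0 of the 10 passed limma within replicates 1 to 3, where 0.190% of all tested genes did, and 3 of the 10 had an unadjusted p under 0.05, where 14.8% of all tested genes did. Without KO 4 and KO 5 and with genotype as the only term, 0 of the 10 passed limma, where 1.95% of all tested genes did, and 4 of the 10 had an unadjusted p under 0.05, where 18.5% of all tested genes did. With each library left out in turn, the number of all genes past limma's threshold ranged from 0 to 93 with genotype only, from 56 to 678 with the set term and from 26 to 811 within replicates 1 to 3. Within replicates 4 and 5, with 2 libraries per group, 0 of the 10 passed limma, as did 0.00% of all genes. There 0 of the 10 had an unadjusted p under 0.05 as well, where 6.23% of all tested genes did. The ranges of the groups did not overlap for 1 of the 10 genes over all libraries (3.50% of all tested genes), for 4 within replicates 1 to 3 (30.6%) and for 4 within replicates 4 and 5 (41.6%). For *Pcyt1a* and *Crls1* they parted in opposite directions, higher in KO 1 to 3 and lower in KO 4 and 5, where 2.90% of all tested genes parted in opposite directions and 1.55% in this order.

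**Figure D2:**
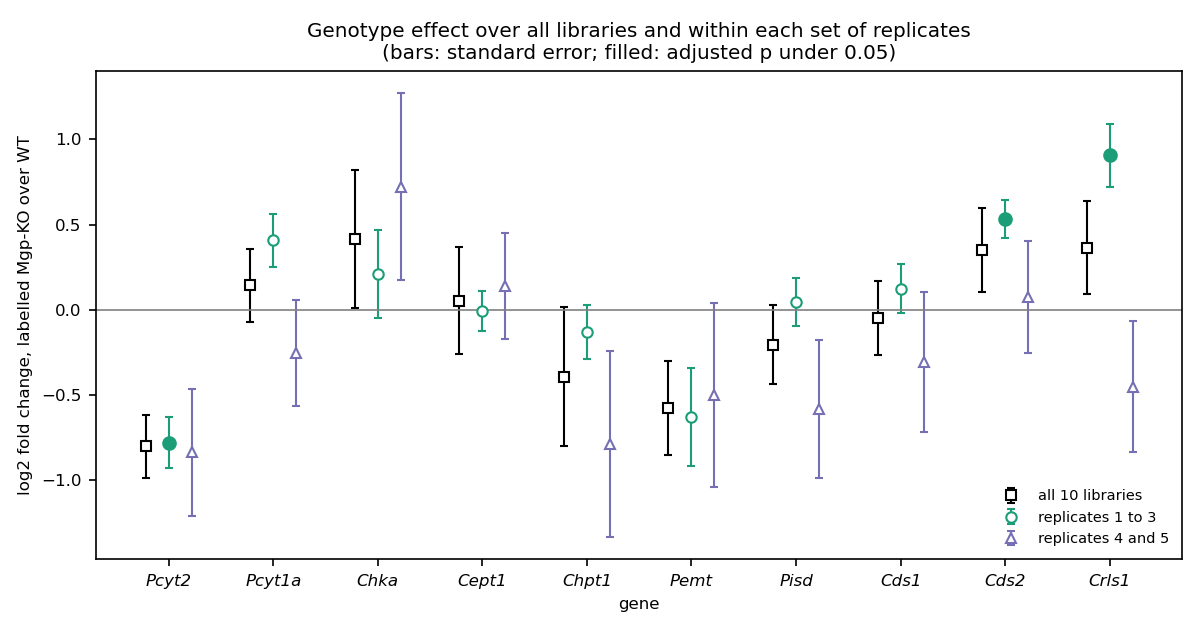
Log2 fold change of the *Mgp*-KO-labelled libraries over WT (vertical axis) for each gene, over all 10 libraries (squares), within replicates 1 to 3 (circles) and within replicates 4 and 5 (triangles), with limma's standard error as bars and filled symbols where the adjusted p was under 0.05. *Pcyt2* lies near -0.80 in each, and *Crls1* is at 0.91 in replicates 1 to 3 and at -0.45 in replicates 4 and 5.

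*Cds2*, *Crls1* and *Pcyt1a* are the 3 genes whose KO 1 to 3 libraries all lay above WT 1 to 3, and the 250 bases before the most upstream annotated start of each are shown so that their promoters can be compared. The sequences are those of RefSeq on GRCm38.p6, forward strand, 5′ to 3′. Capitals mark a sterol regulatory element (TCACNCCAC) in *Pcyt1a*, an E-box (CACGTG) in *Crls1* and CCAAT boxes (CCAAT, on either strand) in *Cds2*.
*Pcyt1a*, chr16:32430671-32430920: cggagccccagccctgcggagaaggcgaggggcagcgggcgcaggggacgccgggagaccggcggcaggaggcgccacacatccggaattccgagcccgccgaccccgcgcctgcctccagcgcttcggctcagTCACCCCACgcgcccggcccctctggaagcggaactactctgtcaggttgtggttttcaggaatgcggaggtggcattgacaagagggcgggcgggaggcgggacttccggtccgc
*Crls1*, chr2:132846416-132846665: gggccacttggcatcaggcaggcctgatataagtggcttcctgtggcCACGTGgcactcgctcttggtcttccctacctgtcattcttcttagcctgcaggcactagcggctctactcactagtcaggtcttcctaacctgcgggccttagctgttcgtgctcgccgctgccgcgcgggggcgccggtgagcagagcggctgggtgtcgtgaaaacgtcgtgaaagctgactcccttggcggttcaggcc
*Cds2*, chr2:132262898-132263147: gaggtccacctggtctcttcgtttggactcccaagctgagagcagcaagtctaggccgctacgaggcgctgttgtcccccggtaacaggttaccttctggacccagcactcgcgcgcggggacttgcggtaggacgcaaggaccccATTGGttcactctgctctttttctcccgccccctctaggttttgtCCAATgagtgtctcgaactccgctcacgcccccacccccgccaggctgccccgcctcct

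Promoters of 9 of the 10 genes were matched in RefSeq, in 17 windows of 250 bases, and *Pcyt2* had no match. Of all 32851 windows, 1.05% held the sterol regulatory element on either strand, and among the 17 it was found at 1 site, in *Pcyt1a*, at -116 to -108 from the start shown. A later *Pcyt1a* window, chr16:32430770-32431019, overlaps that window and holds the same site. The E-box was in 6.02% of all windows and in 1 of the 17, that of *Crls1*, at -203 to -198 from its start. CCAAT boxes were in 33.8% of all windows and in 6 of the 17, those of *Cds2*, *Chka*, *Chpt1*, *Pemt* and *Pisd*, a share near that of all windows. In the window of *Cds2* shown they lie at -104 to -100 and -59 to -55, and a later *Cds2* window, chr2:132285689-132285938, held others at -190 to -186, -95 to -91 and -71 to -67 from its own start. The GC box (GGGCGG), left in lower case above, was in 32.7% of all windows and in 8 of the 17, and the palindromic motif of NRF1, a factor of nuclear genes for mitochondria, was in 0.782% of all windows and in 0 of the 17. No match of a motif shared letters with a match of another in the 3 sequences shown. Among these 5 motifs, none was present in all 3 of them. A match describes letters of the sequence and is not evidence that a factor binds.

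The kinase and the CTP-dependent transferases stand at the start of the Kennedy pathway. *Pcyt2* encodes the enzyme that activates phosphoethanolamine with CTP, the regulated step of phosphatidylethanolamine synthesis, and lies at chr11:120610087-120617936 on the reverse strand (GRCm38, as the other positions below). Normalized counts of *Pcyt2* were 1026, 1299, 1477, 1029 and 1614 in WT 1 to 5 and 708, 737, 744, 864 and 601 in KO 1 to 5. Every *Mgp*-KO-labelled library lay below every WT library, the nearest pair being KO 4 and WT 1. The mean was 1289 ± 264 in WT and 731 ± 93.9 in the *Mgp*-KO-labelled libraries (SD, n = 5 each), a ratio of 0.567.

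The log2 fold change of *Pcyt2* was -0.80 (SE 0.18, limma adjusted p = 0.117, unadjusted p = 9.72e-04) over all libraries. With the set term the adjusted p was 0.0330 in limma, and in DESeq2 without that term it was 0.00308. The fold change was -0.78 (SE 0.15, limma adjusted p = 0.0375) within replicates 1 to 3 and -0.84 (SE 0.37, limma adjusted p = 0.679) within replicates 4 and 5. The difference between the sets was -0.06 (SE 0.35, limma adjusted p = 0.956). Without KO 4 and KO 5 the fold change was -0.80 (limma adjusted p = 0.0673), and with the set term and without WT 2 it was -0.79 (limma adjusted p = 0.0961). Within replicates 1 to 3 without WT 2 the adjusted p was 0.170 in limma, at a fold change of -0.75. With each library left out in turn, the adjusted p of the set term fit ranged from 0.0174 to 0.105 and stayed under 0.05 without WT 1, WT 4 or KO 4, but not without WT 2, WT 3, WT 5, KO 1, KO 2, KO 3 or KO 5. Within replicates 1 to 3 it ranged from 0.0333 to 0.170 and stayed under 0.05 without WT 1 or KO 2, but not without WT 2, WT 3, KO 1 or KO 3. The summed level of 8 brown adipocyte markers also did not overlap between the groups, at 108376 to 194229 normalized counts in WT and 42606 to 93528 in the *Mgp*-KO-labelled libraries, with 0 of the 8 past limma's threshold over all libraries. Without *Ucp1* the sum of the other 7 overlapped, at 67054 to 82151 and 33907 to 77887, KO 5 lying above WT 1 and WT 2. The part of these markers in the result was not tested.

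*Pcyt1a*, at chr16:32430921-32475070 on the forward strand, encodes the enzyme that activates phosphocholine with CTP, the rate-limiting step of phosphatidylcholine synthesis. Its normalized counts were 1515, 1614, 1883, 1486 and 1772 in WT 1 to 5 and 2055, 2685, 1950, 1282 and 1444 in KO 1 to 5. In replicates 1 to 3 all *Mgp*-KO-labelled libraries lay above WT, and in replicates 4 and 5 both lay below WT. Over all libraries its log2 fold change was 0.14 (SE 0.21, limma adjusted p = 0.861). It was 0.41 (limma adjusted p = 0.188) in replicates 1 to 3 and -0.25 (limma adjusted p = 0.794) in replicates 4 and 5, and the difference between the sets, -0.66, had an adjusted p of 0.475 in limma (unadjusted p = 0.0403). Exons of *Slc51a*, on the opposite strand and not listed among the counted genes, cover 7.65% of the exon bases of *Pcyt1a*.

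*Chka*, at chr19:3851773-3894369 on the forward strand, encodes choline kinase alpha, the enzyme that commits choline to the pathway. In normalized counts it was at 157, 180, 137, 422 and 156 in WT 1 to 5 and 132, 262, 175, 565 and 318 in KO 1 to 5. Replicate 4 was the highest library of each group, and the groups overlapped. For *Chka* the log2 fold change was 0.42 (SE 0.41, limma adjusted p = 0.777), and without KO 4 and KO 5 it was -0.07 (limma adjusted p = 0.935).

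Per length, *Pcyt1a* and *Pcyt2* were in the opposite order in 4 of the 5 *Mgp*-KO-labelled libraries. In normalized counts per kilobase of annotated exons, *Pcyt1a* over *Pcyt2* was 0.866, 0.728, 0.748, 0.847 and 0.644 in WT 1 to 5 and 1.70, 2.14, 1.54, 0.870 and 1.41 in KO 1 to 5. All WT libraries had more *Pcyt2* than *Pcyt1a* per kilobase, and so did KO 4, while KO 1, KO 2, KO 3 and KO 5 had less. The ratio was 0.767 ± 0.0913 in WT and 1.53 ± 0.461 in the *Mgp*-KO-labelled libraries (SD, n = 5 each). Before division by length *Pcyt1a* lay above *Pcyt2* in every library. The order per kilobase therefore rests on the annotated exon lengths, 7412 bases for *Pcyt1a* and 4346 for *Pcyt2*. This pair was chosen after its values were seen, and the ratio was not tested.

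The phosphotransferases complete the Kennedy pathway. *Cept1*, at chr3:106502260-106547802 on the reverse strand, encodes choline/ethanolamine phosphotransferase, which makes both lipids. *Cept1* had 379, 333, 348, 673 and 647 normalized counts in WT 1 to 5 and 365, 338, 352, 641 and 828 in KO 1 to 5. Replicates 4 and 5 lay above replicates 1 to 3 in both groups, and within each set the groups overlapped. Between the groups the log2 fold change was 0.05 (SE 0.31, limma adjusted p = 0.969), and 0.14 and -0.01 within replicates 4 and 5 and within replicates 1 to 3. Exons of *Dennd2d* on the opposite strand cover 24.7% of its exon bases, and the effect of this overlap on the counts was not tested.

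*Chpt1*, at chr10:88452745-88504073 on the reverse strand, encodes the cholinephosphotransferase of the Golgi. *Chpt1* was at normalized counts of 12281, 12574, 9152, 30337 and 35453 in WT 1 to 5 and 10188, 10856, 9731, 17277 and 20925 in KO 1 to 5. The groups overlapped in replicates 1 to 3, and in replicates 4 and 5 both *Mgp*-KO-labelled libraries lay below WT. Its log2 fold change was -0.39 (SE 0.41, limma adjusted p = 0.793) over all libraries, -0.13 (limma adjusted p = 0.672) in replicates 1 to 3 and -0.79 (limma adjusted p = 0.687) in replicates 4 and 5. Per kilobase, *Chpt1* was 9.83 to 20.5 times as abundant as *Cept1* in WT libraries and 9.46 to 12.0 times as abundant in the *Mgp*-KO-labelled libraries, ranges that overlap. Exons of *Sycp3*, on the opposite strand and listed among the counted genes, cover 7.93% of the exon bases of *Chpt1*.

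*Pisd* and *Pemt* serve the mitochondrial and the methylation route to the same lipids. *Pisd*, at chr5:32736301-32785646 on the reverse strand, encodes phosphatidylserine decarboxylase of the inner mitochondrial membrane. Normalized counts of *Pisd* were 317, 320, 366, 626 and 431 in WT 1 to 5 and 392, 312, 333, 261 and 461 in KO 1 to 5. WT 4 was the highest library and KO 4 the lowest, and the groups overlapped. For *Pisd* the log2 fold change was -0.21 (SE 0.23, limma adjusted p = 0.813), with 0.05 in replicates 1 to 3 alone and -0.58 in replicates 4 and 5 alone. The annotated gene *Gm20671*, not listed among the counted genes, covers 20.1% of the exon bases of *Pisd* on the same strand. The copies *Pisd-ps1* and *Pisd-ps2* were listed at 7.39 to 92.3 and at 0 to 19.1 normalized counts. The effect of shared sequence on the counts of *Pisd* was not tested.

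*Pemt*, at chr11:59970614-60046489 on the reverse strand, encodes phosphatidylethanolamine N-methyltransferase, best known from liver. Its normalized counts were 68.0, 63.6, 103, 76.2 and 48.5 in WT 1 to 5 and 69.3, 39.0, 43.5, 32.4 and 56.3 in KO 1 to 5. KO 2, KO 3 and KO 4 lay below all WT libraries, while KO 1 and KO 5 lay within the WT range. For *Pemt* the log2 fold change was -0.58 (SE 0.28, limma adjusted p = 0.507), with -0.63 in replicates 1 to 3 alone and -0.50 in replicates 4 and 5 alone.

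The CDP-diacylglycerol synthases and cardiolipin synthase belong to the branch that runs through CDP-diacylglycerol, which leads to phosphatidylinositol as well as cardiolipin. *Cds1*, at chr5:101765130-101823858 on the forward strand, and *Cds2* encode synthases that turn phosphatidic acid into CDP-diacylglycerol in the endoplasmic reticulum. The normalized counts of *Cds1* were 478, 499, 512, 485 and 485 in WT 1 to 5 and 584, 450, 601, 275 and 559 in KO 1 to 5. WT libraries were close together, with an SD of 13.5 against 136 in the *Mgp*-KO-labelled libraries, where KO 4 was the lowest. Its log2 fold change was -0.05 (SE 0.22, limma adjusted p = 0.964).

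*Cds2*, at chr2:132263148-132312050 on the forward strand, had normalized counts of 1987, 2010, 2033, 1788 and 1268 in WT 1 to 5 and 3236, 2811, 2711, 1591 and 1584 in KO 1 to 5. KO 1 to 3 all lay above every WT library, and KO 4 and KO 5 lay between WT 5 and WT 4. The mean of replicates 1 to 3 was 2010 ± 23.1 in WT and 2919 ± 279 in the *Mgp*-KO-labelled libraries (SD, n = 3 each), a ratio of 1.45. The log2 fold change was 0.53 (SE 0.11, limma adjusted p = 0.0478) in replicates 1 to 3 and 0.08 (SE 0.33, limma adjusted p = 0.950) in replicates 4 and 5. Over all libraries it was 0.35 (SE 0.25, limma adjusted p = 0.668). Within replicates 1 to 3 without WT 2 it was 0.53 (limma adjusted p = 0.202). With each of these 6 libraries left out in turn the adjusted p ranged from 0.0320 to 0.202 and stayed under 0.05 without KO 2, but not without WT 1, WT 2, WT 3, KO 1 or KO 3. In limma the difference between the sets, -0.46, had an adjusted p of 0.524.

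*Crls1*, at chr2:132846666-132866785 on the forward strand, encodes cardiolipin synthase, which joins CDP-diacylglycerol and phosphatidylglycerol in mitochondria. Its normalized counts were 2692, 2909, 3238, 5790 and 4170 in WT 1 to 5 and 5592, 6963, 4305, 3111 and 4154 in KO 1 to 5. In replicates 1 to 3 all *Mgp*-KO-labelled libraries lay above WT, and in replicates 4 and 5 both lay below, KO 5 just under WT 5. The mean of replicates 1 to 3 was 2946 ± 275 in WT and 5620 ± 1329 in the *Mgp*-KO-labelled libraries (SD, n = 3 each), a ratio of 1.91.

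The log2 fold change of *Crls1* was 0.91 (SE 0.18, limma adjusted p = 0.0453) in replicates 1 to 3, and DESeq2 gave an adjusted p of 3.08e-04 there. Within replicates 1 to 3 without WT 2 it was 0.90 (limma adjusted p = 0.181), and with each of these 6 libraries left out in turn the adjusted p ranged from 0.0309 to 0.181 and stayed under 0.05 without KO 2 or KO 3, but not without WT 1, WT 2, WT 3 or KO 1. It was -0.45 (SE 0.38, limma adjusted p = 0.722) in replicates 4 and 5 and 0.36 (SE 0.27, limma adjusted p = 0.689) over all libraries. The difference between the sets was -1.36 (SE 0.36, unadjusted p = 0.00340, limma adjusted p = 0.455), and in DESeq2 its adjusted p was 0.0526. Without KO 5 the difference between the sets was -1.57 for *Crls1* (limma adjusted p = 0.0301) and -0.94 for *Cds1* (limma adjusted p = 0.0497), in a fit that passed 11.8% of all tested genes and assumed that the lone KO 4 library varies like the other groups. Over all libraries 0 of the 10 genes passed the test of this difference in limma, edgeR or DESeq2, where 0.00729%, 0.00729% and 0.406% of all genes did. In limma the unadjusted p of this difference was under 0.05 for 2 of the 10, *Crls1* and *Pcyt1a*, where it was for 10.3% of all tested genes. The brown adipocyte marker sum was lower in the *Mgp*-KO-labelled libraries in each set, at 108376 to 126685 against 42606 to 70450 in replicates 1 to 3 and at 144579 to 194229 against 46226 to 93528 in replicates 4 and 5. Without *Ucp1* it was 67054 to 80494 against 40405 to 61511 in replicates 1 to 3, and in replicates 4 and 5 KO 5, at 77887, lay just under WT 5, at 78211. Of the 8 markers *Ucp1* passed limma in replicates 1 to 3 (adjusted p = 0.0454), and the median log2 fold change of the 8 was -0.68. *Pparg*, the adipocyte regulator, named after its values were seen, was the 1 marker with a positive value there, 0.32 (limma adjusted p = 0.170). The part of these markers in the values of *Crls1* was not tested.

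*Cds2* and *Crls1* lie on the same strand of chromosome 2, with 534615 bases between them. Of the genes between them, 3 were tested, *Gpcpd1*, *Trmt6* and *Mcm8*, and in replicates 1 to 3 their log2 fold changes ranged from -0.11 to 0.28, with 0 of the 3 past the threshold in limma. For *Trmt6*, at 0.22, KO 1 to 3 also all lay above WT 1 to 3, while *Gpcpd1* and *Mcm8* overlapped. The groups did not overlap there for 30.6% of all tested genes. *Crls1*, *Cds1* and *Pcyt2* share 0 stretches of 50 bases, the read length, with any other annotated transcript, so none of their exon sequence is repeated elsewhere in the annotation at that length.

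Levels were compared between genes per kilobase of annotated exons. In WT, *Chpt1* was the most abundant at 2398 ± 1444 normalized counts per kilobase, followed by *Crls1* at 1806 ± 609 and, well below, by *Pcyt2* at 297 ± 60.7 (SD, n = 5 each). *Pcyt1a* followed at 223 ± 22.9, *Cds2* at 199 ± 35.3, *Cept1* at 153 ± 54.2 and *Cds1* at 125 ± 3.44. The lowest were *Pisd* at 71.6 ± 22.3, *Pemt* at 34.1 ± 9.55 and *Chka* at 17.5 ± 9.92. Neighbours in this order whose WT ranges did not overlap were *Crls1* and *Pcyt2*, *Cds1* and *Pisd*, and *Pisd* and *Pemt*, and the other neighbours overlapped. Replicates 4 and 5 carry part of this order. In WT 1 to 3 alone *Crls1*, at a mean of 1415, lay above *Chpt1*, at 1362, and *Cds1*, at 126, above *Cept1*, at 113. *Chpt1* lay at percentile 98.4 and *Chka* at percentile 25.2 among 13356 tested genes with a known length.

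**Figure D3:**
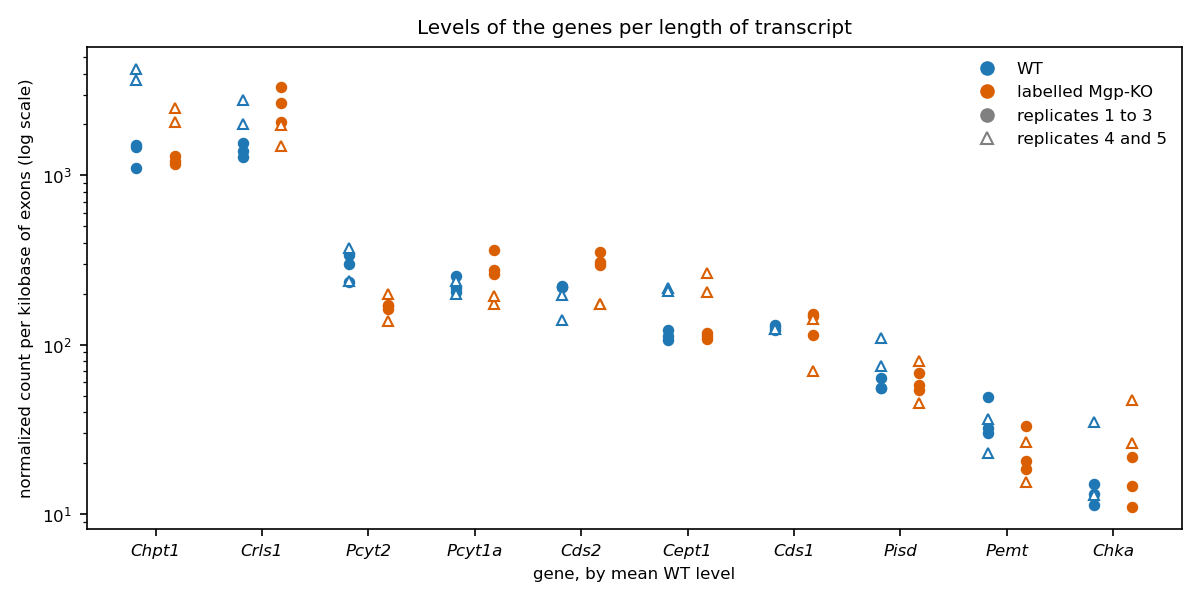
Normalized counts per kilobase of exons (log scale) of the 10 genes in each library, ordered by the mean level of the 5 WT libraries, with WT in blue, the *Mgp*-KO-labelled libraries in orange, filled circles for replicates 1 to 3 and open triangles for replicates 4 and 5. In WT the levels run from 2398 for *Chpt1* down to 17.5 for *Chka*.

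The sets of replicates differed in 4 of the 10 genes with genotype in the model, where 38.2% of all tested genes differed in limma, so the share of the 10 was near that of all genes. In replicates 4 and 5 *Chpt1* was higher by 1.22 (limma adjusted p = 8.46e-04), *Cept1* by 0.97 (limma adjusted p = 2.27e-04) and *Chka* by 0.96 (limma adjusted p = 0.0268) on the log2 scale. *Cds2* was lower there, with a log2 difference of -0.65 (limma adjusted p = 0.00613). The sets of replicates cannot be told apart from depth or from the share of mitochondrial ribosomal RNA, which part the same libraries.

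Beyond these enzymes, 38 other genes of phospholipid metabolism were followed in 5 lists, and 35 of them passed the filter on low values. Over all libraries, with genotype as the only term, 0 of the 35 passed limma, 0 passed edgeR and 1, *Lpcat3*, passed DESeq2, where 0.0656%, 0.0219% and 2.26% of all genes did, and 7 of the 35 had an unadjusted p under 0.05 in limma, where 10.4% did. With the set term limma and edgeR each called *Lpcat3* alone, where 2.36% and 2.49% of all genes passed. DESeq2 with that term gave an adjusted p to 34 of the 35. It called 6 of them, all lower, where 7.42% of all genes passed in either direction. Limma called *Lpcat3* alone within replicates 1 to 3 as well, where 3.54% of all tested genes passed, and DESeq2 called 6 there, of which 4 were lower, where 8.83% passed in either direction. The other 2, named after their values were seen, were *Lpgat1*, of acyl chain remodelling, with a DESeq2 log2 fold change of 0.63 (adjusted p = 0.0155), and *Ahcy*, which hydrolyses S-adenosylhomocysteine, with 1.64 (adjusted p = 0.0488). In limma they were at 0.65 (adjusted p = 0.0778) and 1.20 (adjusted p = 0.314) there, and at -0.45 and -0.63 in replicates 4 and 5. *Ahcy* was at 114 ± 115 normalized counts in KO 1 to 3 (SD, n = 3). DESeq2 gave *Ahcy* no adjusted p over all libraries, with or without the set term. *Lpcat3* encodes the acyltransferase that puts polyunsaturated chains into phosphatidylcholine. Its normalized counts were 941, 1015, 1172, 685 and 957 in WT 1 to 5 and 639, 528, 631, 536 and 433 in KO 1 to 5. All *Mgp*-KO-labelled libraries lay below all WT libraries. The log2 fold change of *Lpcat3* was -0.78 (SE 0.19, limma adjusted p = 0.134), the adjusted p was 0.0197 with the set term, and within replicates 1 to 3 it was -0.80 (limma adjusted p = 0.0296). With the set term and without WT 2 the adjusted p was 0.0652 in limma, and it was also over 0.05 without WT 3, WT 5 or KO 3, with a highest value of 0.0718. Within replicates 1 to 3 it ranged from 0.0206 to 0.138 with each library left out and stayed under 0.05 without KO 2, but not without the others. Groups did not overlap over all libraries for 3 of the 35 genes, *Lpcat3*, *Slc44a1* and *Lclat1*, each with the lower values under the *Mgp*-KO label, where 2.11% of all tested genes were lower without overlap, and *Lclat1*, an acyltransferase of cardiolipin remodelling, was named after its values were seen.

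In the cardiolipin list 0 of 11 tested genes passed limma, with or without the set term, and DESeq2 with the set term called 2, *Prelid3b* and *Hadha*, where 2.36% of all genes passed limma and 7.42% passed DESeq2 with that term. Over all libraries 9 of the 11 had a negative log2 fold change, with a median of -0.37 against 0.03 for all tested genes. The median was -0.08, with 7 of 11 negative, in replicates 1 to 3 and -0.68, with 9 of 11 negative, in replicates 4 and 5, whose *Mgp*-KO-labelled libraries hold *Mgp* reads. *Prelid3b*, which encodes a lipid transfer protein of the intermembrane space, was at -0.77 (limma adjusted p = 0.307, 0.0545 with the set term), and in DESeq2 its adjusted p was 0.00507 with the set term and 0.00704 within replicates 1 to 3. *Hadha*, the alpha subunit of the mitochondrial trifunctional protein, was at -0.84 (limma adjusted p = 0.391), and in DESeq2 its adjusted p was 0.0203 with the set term and 0.0775 within replicates 1 to 3.

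In the rest of the choline and ethanolamine branch 0 of 3 tested genes passed limma and 1, *Etnk1*, passed DESeq2 with the set term, where 7.42% of all genes did, with *Selenoi*, an ethanolamine phosphotransferase, at -0.48. *Etnk1*, an ethanolamine kinase, was at -0.45, and in DESeq2 its adjusted p was 0.0454 with the set term and 0.0424 within replicates 1 to 3. Among 4 genes for other headgroups 0 passed limma or DESeq2 with the set term, with *Pgs1*, which makes phosphatidylglycerol phosphate and is also 1 of the 11 cardiolipin genes, at -0.37, and *Ptdss2*, a phosphatidylserine synthase, at -0.34. Among 10 genes of choline transport and breakdown 0 passed limma. With the set term 2 of the 9 that had an adjusted p in DESeq2 passed it, where 7.42% of all genes did. These were *Slc44a1*, a choline transporter, at -0.54 (DESeq2 adjusted p = 0.0137, and 0.0122 within replicates 1 to 3), and *Gde1*, a phosphodiesterase, at -0.66 (DESeq2 adjusted p = 0.0313, and 0.300 within replicates 1 to 3).

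**Figure D4:**
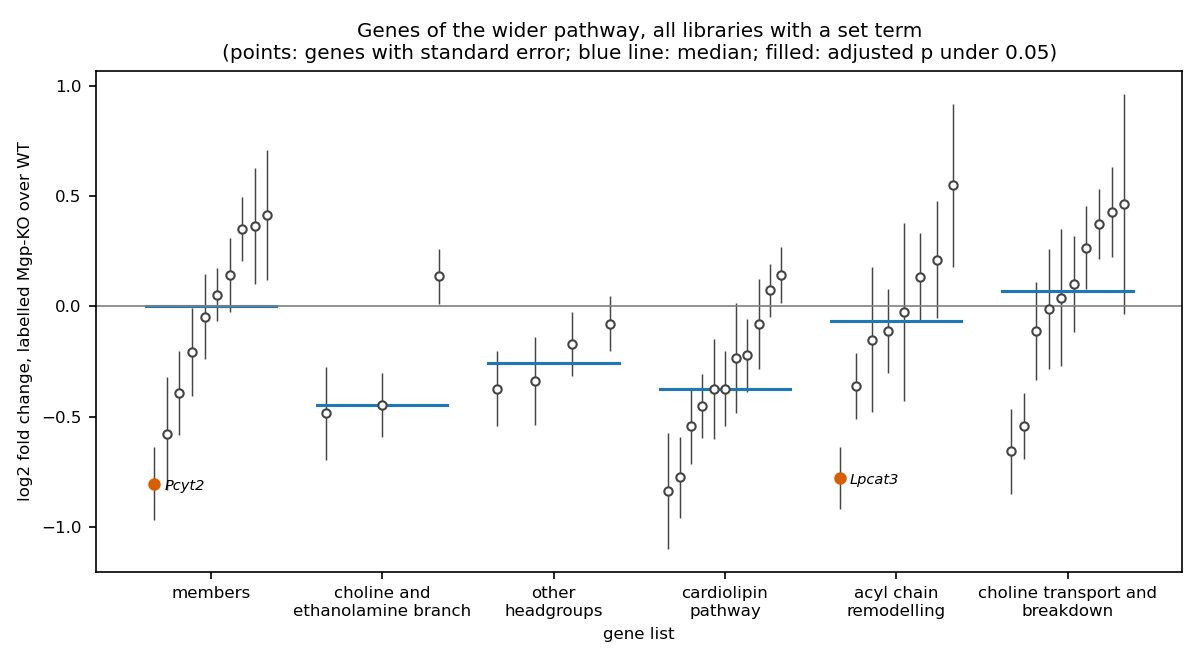
Log2 fold change over all libraries with the set term (vertical axis) for each tested gene of the 10 enzymes and the 5 other lists, with limma's standard error as bars, blue lines at the list medians and filled orange points where the adjusted p was under 0.05. *Pcyt2* and *Lpcat3* are the genes past the threshold in limma, at -0.80 and -0.78.

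Markers of other cell types were compared in each set. In replicates 4 and 5, where *Crls1*, *Pcyt1a* and *Chpt1* were lower in both *Mgp*-KO-labelled libraries, the summed levels of 3 of the lists were higher in both. There the sum of 7 endothelial markers was 18137 to 28037 normalized counts in WT and 28766 to 49491 in the *Mgp*-KO-labelled libraries, that of 7 adipose progenitor markers 5421 to 5807 and 7111 to 11532, and that of 6 macrophage markers 1115 to 1329 and 1465 to 1768. In replicates 1 to 3 the groups overlapped in each of these lists, at 17281 to 20069 and 19865 to 23648 for endothelial, 4576 to 5490 and 5307 to 6778 for progenitor and 1503 to 1808 and 1266 to 1794 for macrophage markers. Of the macrophage markers *Lyz2* alone, named after its values were seen, parted in replicates 4 and 5. It was at 463 and 573 in WT and 759 and 767 in the *Mgp*-KO-labelled libraries. The other macrophage markers overlapped there, where 41.6% of all tested genes did not. Members of the progenitor list went both ways, 3 of 7 with a positive log2 fold change in each set, and *Pdgfra*, its defining gene, was at 195 to 437 in WT and 172 to 343 in the *Mgp*-KO-labelled libraries. The sum of 7 skeletal muscle markers overlapped in both sets, at 38.9 to 5348 in WT, and was 29532 in KO 2 and 29887 in KO 5 but 36.1 to 283 in the other *Mgp*-KO-labelled libraries. KO 2 was also the highest library for *Crls1* and *Pcyt1a*, and without it the log2 fold change of *Crls1* in replicates 1 to 3 was 0.74 (limma adjusted p = 0.0309). In each of these lists 0 genes passed limma over all libraries, and *Pecam1*, *Pdgfra*, *Adgre1* and *Ckm* were above 0 in every library. Their part in the values of the 10 genes was not tested.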

How the data were processed

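RNA-seq of BAT from 5 WT mice and 5 mice labelled *Mgp*-KO was used. The submitters' processing notes name STAR, DESeq2 and mm10. The authors deposited a signal per gene, the count of each library divided by its DESeq2 size factor (normalized count), and the annotation release and strand setting were not given in the sources used here. Whole reads were recovered for 100% of values, within 0.01 reads, and 0 sample columns were left unused.

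Tests used limma 3.58.1 in R 4.3.3 on log2(normalized count + 1), with eBayes trend and genotype as the term. Recovered counts were tested with edgeR 4.0.16 (quasi-likelihood, TMM), which called 3 genes of all, and DESeq2 1.42.0, which called 374. Scripts were tested on simulated data. Coordinates come from GENCODE (GRCm38), which held 94.1% of the listed symbols.

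The members and lists were chosen with earlier results of these data known. Genes were named if they were members, copies of *Pisd*, *Mgp*, defining markers or, of each other list, those past the threshold or else the 2 with the largest change. Genes that overlap a member or lie between members were also named, and genes named after their values were seen are marked as such. Alternatives were pseudocounts of 0.5 and 10, a minimum mean of 50 or none, a replicate block, a set term, subsets of libraries, upper quartile scaling, edgeR and DESeq2. Alternatives added after seeing the data were the set term in edgeR, DESeq2 on replicates 1 to 3, subsets without WT 2 or without KO 4 and KO 5 beside the set term or within replicates 1 to 3, each library left out of those fits, and those of the difference between the sets.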

Additional observations from a re-analysis of the deposited data

Results flagged for a closer look

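*Chka* in WT 4 was at 422 normalized counts, apart from the other WT libraries at 137 to 180, and its gap to the nearest of them was 0.847 of the whole WT range. It was the 1 library that stood apart in this way among 20 groups of 5 libraries (10 genes in WT and in the *Mgp*-KO-labelled libraries), and chance gives about 1 in 20. The highest *Mgp*-KO-labelled library for *Chka* was also replicate 4, at 565.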

How the results depend on the processing

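Over all libraries 0 of the 10 genes passed limma, in a fit that *Mgp* itself did not pass. Of 28 alternatives, 22 gave 0 as well and 6 gave more: 1 gene with the set term in limma, in edgeR and in DESeq2, 1 in DESeq2 without it, and 3 within replicates 1 to 3 in limma and in DESeq2. With each library left out the number stayed at 0 to 0 with genotype only, 0 to 1 with the set term, 0 to 3 within replicates 1 to 3, and 0 to 2 for the difference between the sets, where leaving out KO 5 gave 2. The call of *Pcyt2* with the set term was lost without any 1 of WT 2, WT 3, WT 5, KO 1, KO 2, KO 3 and KO 5 (adjusted p = 0.0634 to 0.105 from limma), and within replicates 1 to 3 the 3 calls stayed together when KO 2 was left out. Without WT 1 only *Pcyt2* remained there, without KO 3 only *Crls1*, and without WT 2, WT 3 or KO 1 none did; fewer libraries were then tested.

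Signs turned for genes that passed no test over all libraries. *Pcyt1a* was at -0.25 and *Crls1* at -0.45 within replicates 4 and 5, and *Chka* at -0.070 without KO 4 and KO 5. *Cept1* was at -0.0063 within replicates 1 to 3 and with the set term without KO 4 and KO 5, -0.016 in DESeq2 within replicates 1 to 3, -0.048 within them without WT 2 and -0.37 without KO 4 and KO 5. *Pisd* was at 0.045 within replicates 1 to 3 and with the set term without KO 4 and KO 5, 0.041 in DESeq2 within replicates 1 to 3 and 0.015 within them without WT 2. *Cds1* was at 0.12 within replicates 1 to 3 and with the set term without KO 4 and KO 5, 0.13 in DESeq2 within replicates 1 to 3 and in limma within them without WT 2, 0.14 without KO 4 and KO 5, 0.0047 in edgeR and 0.0094 in DESeq2. With each library left out, *Cept1* ranged from -0.15 to 0.20 and *Cds1* from -0.13 to 0.15. The cause was not tested.

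In the fit with a replicate block 0 of the 10 genes passed (*Pcyt2*, limma adjusted p = 0.0626), and *Lpcat3* passed (limma adjusted p = 0.0468). The study's methods speak of pairs of mice, and the labels do not say that a number marks a pair. Deviations of same-numbered libraries correlated at 0.527, 0.0559, 0.327, 0.523 and 0.514, with a mean of 0.390 against 0.416 for other numbers of the same set and -0.022 once set means were removed, and 2 of 5 WT libraries correlated best with their own number. As 1 pair was not over 0.1, the numbers were not taken as pairs. Over all genes the calls were 9 with genotype only, 270 with the block, 324 with the set term, 486 within replicates 1 to 3, 3 in edgeR and 374 in DESeq2. They were 29 with a pseudocount of 10, 1 without a filter, 15 with a mean of at least 50, 341 in edgeR and 1152 in DESeq2 with the set term, and 1348 in DESeq2 within replicates 1 to 3. Leaving out 1 library moved these counts by over 1.5 times. With genotype only they ranged from 0 to 93, with 0 without WT 2, WT 3, WT 5, KO 1 or KO 3, 5 without KO 5, 34 without WT 4 and 93 without KO 4. With the set term they ranged from 56 without WT 3 to 678 without KO 4, moving by over 1.5 times without any library but WT 4 and KO 5, and within replicates 1 to 3 from 26 without WT 2 to 811 without KO 2, moving so without any of the 6. In reads, *Pemt* was the lowest of the 10 genes in every library, at 20 to 140.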
